A study of Mus musculus with 7 samples.

Results

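The genes whose symbols start with Kcn encode the subunits of most potassium channels, and 99 of the 33696 genes in the count table of BB-p53n OPCs carry such a symbol. The members were taken by this symbol alone. They comprised 94 protein-coding genes and 5 long non-coding RNAs (lncRNAs), and all 99 were found by Ensembl identifier in GENCODE vM39. Of the 94 protein-coding genes, 77 held the codons of a potassium selectivity filter and are called pore-forming below, while 17 lacked them and are called auxiliary.

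BB-p53n OPCs are oligodendrocyte progenitor cells (OPCs) from postnatal Trp53 fl/fl mice of either sex on a C57BL/6 background, selected with an antibody to CD140a, the PDGFRα receptor. A retrovirus that carries PDGFB and Cre removed Trp53 and made the cells overexpress PDGFB, so every nucleus described here comes from cells meant to carry both changes, and the library has no unmodified control. Nuclei of the cultured cells were measured by single-nucleus RNA sequencing (snRNA-seq) in 1 library, and the brains with tumors, 3 early-stage and 3 late-stage, were not analysed here. A culture is a limited model of a tissue, since it lacks the neurons, vessels and myelin that surround OPCs in the brain.

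Of 10047 barcodes, 8917 held 2000 to 8000 detected genes and were kept as nuclei. They had a median of 13771 UMIs (unique molecular identifiers, each a count of 1 captured RNA molecule) and 4718 genes, with 6.34% of UMIs from mitochondrial genes. The OPC markers were present, with Ptprz1 at 1895, Olig1 at 618, Pdgfra at 256 and Sox10 at 87.3 counts per 1000000 UMIs (CPM). Defining markers of other cell types were at or near 0, with Aqp4 of astrocytes at 0.0283, Mog of oligodendrocytes at 0.0709 and Stmn2 of neurons at 0.0283 CPM, and Gjb6 of astrocytes had no UMI. Markers that these cell types share with progenitors were higher, with Bcas1 at 337, Slc1a3 at 237 and Syt1 at 109 CPM. Doublets were not removed. The nuclei come from 1 library and are not replicates, so no test was made, and each 95% interval covers counting error only.

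Potassium channels let potassium ions leave or enter a cell along their electrochemical gradient and so set its resting potential and the shape of its electrical responses. Voltage-gated subunits (Kcna, Kcnb, Kcnc, Kcnd, Kcnh, Kcnq) open on depolarization, calcium- and sodium-activated subunits (Kcnma, Kcnn, Kcnt) open when those ions rise in the cell, inward rectifiers (Kcnj) pass current best near rest, and tandem-pore subunits (Kcnk) carry leak current. Auxiliary subunits (Kcnab, Kcne, Kcnip, Kcnmb) bind the pore and change its gating or its traffic to the membrane. OPCs are known for A-type and delayed rectifier potassium currents, and the balance of these currents changes as the cells leave the cell cycle and mature.

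The part of the gene that all pore-forming members share is the selectivity filter, the narrow stretch of the pore where potassium ions are coordinated. It was searched in the coding sequence of each gene's canonical transcript as codons for threonine or serine, any residue, glycine, tyrosine or phenylalanine, and glycine. Outside the Kcn genes, 489 of 21337 protein-coding genes (2.292%) held this short signature too, so a match is a description and not proof of a pore. The stretches below are from GENCODE vM39 on GRCm39, read 5′ to 3′ on the coding strand, for members that lead the levels or the comparisons described later. Each has 27 bases, and the capitals mark the 3 codons for glycine, tyrosine or phenylalanine, and glycine.
Kcnd2: atgacaacactgGGGTATGGCgacatg
Kcnd3: atgactacactgGGATATGGAgacatg
Kcna2: atgacaactgtaGGCTATGGAgacatg
Kcnc1: atgacgacactgGGCTATGGAgacatg
Kcnh5: cttacaaccataGGATTTGGAaacata
Kcnma1: atgtctacagtgGGTTATGGGgacgtt
Kcnj10: cagaccaccatcGGCTATGGCttccgc
Kcnk10: atcacaaccataGGGTATGGGaatatt

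The middle codon in capitals was TAT or TAC in 59 of 75 members whose stretch was read and TTT or TTC in 16, among them Kcnh5. A second filter stretch was found in 10 members, among them Kcnk10, whose printed stretch is the one nearer the start of the protein. In Kcnd2, Kcnd3 and Kcnk10 the 27 bases are joined across an intron. On GRCm39 the stretch of Kcnc1 lies at chr7:46077391-46077417 on the plus strand and that of Kcnma1 at chr14:23578475-23578501 on the minus strand, each within 1 exon.

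Kcn RNA in BB-p53n OPCs was dominated by a few genes. The 99 members together had 399836 UMIs, or 2833 CPM, which is 0.283% of all UMIs. Of these UMIs, 82.1% belonged to 6 genes and 88.4% to 10. Only 2 nuclei of 8917 had no Kcn UMI, and the median nucleus had UMIs from 10 Kcn genes, or from 6 after each nucleus was thinned at random to 5000 UMIs. Of the 99 members, 95 had at least 1 UMI, 47 had at least 100 UMIs, 41 reached 1 CPM, 22 reached 10 CPM and 6 reached 100 CPM. The median member stood at 0.638 CPM. The 4 members without a UMI were Kcnk15, Kcnk16, Kcnj1 and Kcne3, and a count of 0 allows up to 0.0213 CPM (3 UMIs) in this library.

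**Figure D1:**
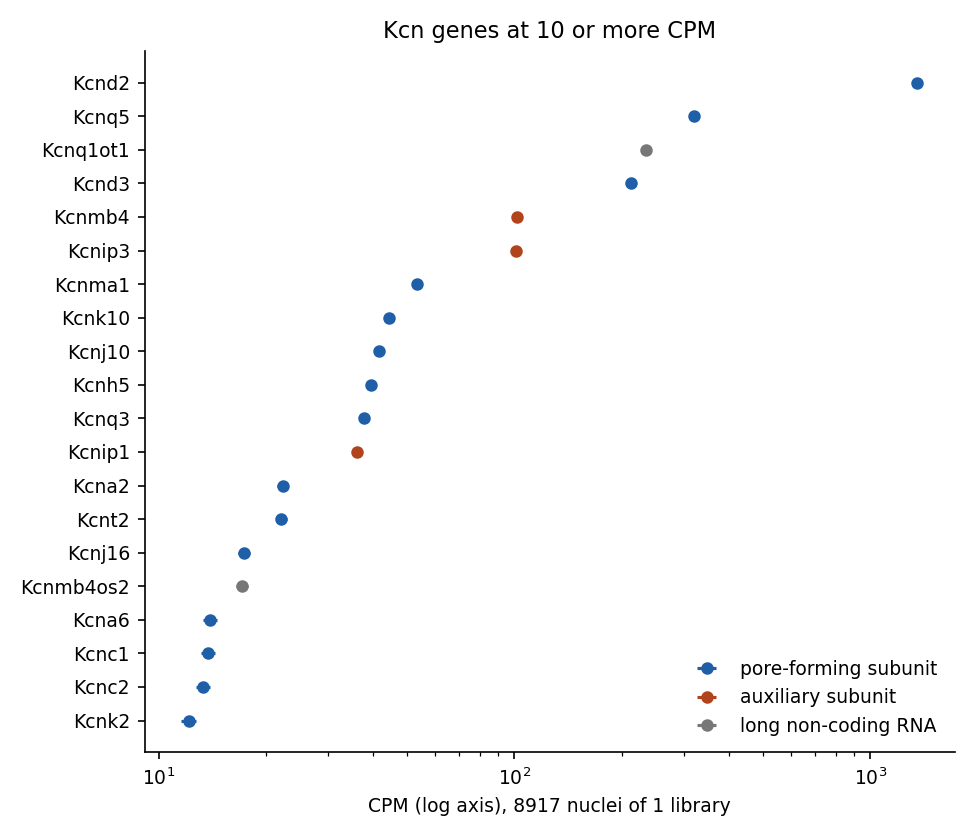
Levels of 20 Kcn genes at 10 or more CPM over 8917 nuclei of 1 library, on a log axis, with 95% Poisson intervals as bars (smaller than most points) and colors for pore-forming subunits, auxiliary subunits and lncRNAs. Kcnd2 stands at 1356 CPM, above Kcnq5 at 320.0, and the genes reach down to Kcnk2 at 12.2.

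The A-type voltage-gated family Kcnd held 55.4% of all Kcn UMIs. Kcnd2, which encodes a fast inactivating subunit and lies on the plus strand at chr6:21214866-21729804, was the highest member at 1356 CPM (95% interval 1349.9 to 1362), 65th among all genes of the library. After thinning, 80.5% of nuclei (95% exact binomial interval 79.7 to 81.3) held a Kcnd2 UMI, with a median of 5 UMIs and an upper quartile of 10 per nucleus, while 19.5% held none. Its paralog Kcnd3 (chr3:105359284-105581318, plus strand) was at 213 CPM and in 58.0% of thinned nuclei. The X-linked paralog Kcnd1 had only 0.801 CPM. The family was thus carried by Kcnd2 and Kcnd3, and the level of Kcnd2 was above that of Kcnd3 also per kilobase of gene span, at 2.63 against 0.958 CPM per kilobase.

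Kcnq5 and Kcnq3 encode subunits of the slow M-type current. Kcnq5 (chr1:21468627-22032166, minus strand) was the second highest member at 320.0 CPM (95% interval 317 to 323) and was seen in 64.6% of thinned nuclei. Kcnq3 had 37.8 CPM. Within this family Kcnq5 was therefore the main transcript.

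The remaining voltage-gated families were lower. In the Shaker family Kcna2 was at 22.3 and Kcna6 at 14.0 CPM, the A-type member Kcna4 was at 2.24, and Kcna5 and Kcna3, both delayed rectifiers, were at 0.581 and 0.149 CPM. In the Shaw family of fast delayed rectifiers Kcnc1 was at 13.7 CPM. Kcnv1, a silent subunit that needs a partner to form a channel, was at 3.11 CPM. Among the ether-a-go-go family Kcnh5 led at 39.4 CPM, and Kcnh2, the pore of the cardiac rapid delayed rectifier, had 1.73 CPM.

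Among ion-activated channels, Kcnma1, the pore of the large-conductance calcium-activated (BK) channel, was at 53.2 CPM and in 21.7% of thinned nuclei. The sodium-activated Kcnt2 was at 22.1 CPM. The small-conductance calcium-activated genes were low, with Kcnn2 at 2.74 and Kcnn3 at 1.74 CPM, and Kcnu1, a channel known from sperm, was at 1.39 CPM. Kcnma1 was thus the leading member of this class.

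Of the inward rectifiers, Kcnj10, the main potassium uptake channel of glia, was at 41.5 CPM and in 17.4% of thinned nuclei, and Kcnj16, which joins it in mixed channels, was at 17.4 CPM. Kcnj3, a G protein-gated subunit, had 1.26 CPM. Of the tandem-pore genes, Kcnk10, a mechanically and lipid gated leak channel, was at 44.4 CPM, Kcnk1 at 8.37 CPM and the acid-sensitive Kcnk3 at 1.37 CPM. Kcnj10 and Kcnk10 thus had similar levels per library, but per kilobase of gene span Kcnj10 was higher, at 1.26 against 0.299 CPM.

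The auxiliary genes held 9.41% of Kcn UMIs. Kcnmb4, a beta subunit of the BK channel, and Kcnip3, a calcium-binding partner of Kcnd channels, had almost the same level at 101 CPM each and were in 36.7% and 36.6% of thinned nuclei. Kcnab2, a beta subunit of Shaker channels, was at 9.20 CPM. None of the 5 Kcne genes reached 100 UMIs, and the highest of them, Kcne2, was at 0.198 CPM.

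The lncRNAs held 8.97% of Kcn UMIs, almost all from Kcnq1ot1 at 234 CPM, the third highest member. Kcnq1ot1 (chr7:142731402-142850327, minus strand) is the imprinted antisense RNA of Kcnq1, while Kcnq1 itself had 0.446 CPM from 63 UMIs. The strand setting of the counting is not given in the sources used here, so reads of such antisense pairs, also of Kcnmb4os2 at 17.2 CPM beside Kcnmb4, cannot be told apart with certainty. Some long members also contain smaller gene models on their own strand, 3 of them within Kcnd2.

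Ranking by share of thinned nuclei gave the same 10 leading genes, and ranking by CPM per kilobase of gene span shared 7 of 10. Long genes hold more intronic RNA in nuclei, and across the 95 members with a UMI the level and the span of the gene had a Spearman correlation of 0.54, given as a description over genes of 1 library. The background of free RNA was gauged with 4 Y-linked genes (Ddx3y, Eif2s3y, Kdm5d and Uty). After thinning, 4.68% of nuclei with 2 or more Xist UMIs held a Y-linked UMI, against 24.6% of nuclei without Xist, at median depths of 12522 and 14184 UMIs. The Y-linked genes summed to 88.3 CPM in nuclei without Xist and 20.0 CPM in those with 2 or more Xist UMIs. Doublets of male and female nuclei were not removed and would add to these values, so free RNA and doublets cannot be told apart. A background share grows with the level of the gene, so 4.68% is no limit for members at other levels, and the background of each Kcn gene was not measured.

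The nuclei were next compared by their UMIs of Pdgfra, the receptor used to select the cells. Pdgfra was at 0 UMIs in 2341 nuclei, at 1 in 1000 and at 2 or more in 5576. The 99 Kcn genes summed to 1866 CPM in the nuclei with 0 Pdgfra UMIs and to 3072 CPM in those with 2 or more, and without Kcnd2 the sums were 1377 and 1494 CPM. The difference of the sums was therefore mostly that of Kcnd2. Ratios below are the level with 0 over the level with 2 or more Pdgfra UMIs, and a member was counted as past 2-fold at a ratio of at least 2 or at most 0.5 with at least 100 UMIs over both groups.

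Of 47 members with enough UMIs, 8 were past 2-fold higher with 0 Pdgfra UMIs, where 8.49% of 14316 genes were, and 9 were past 2-fold lower, where 6.41% of genes were. The median ratio was 0.989 over the members and 1.11 over all genes. The 8 higher members came from 7 families and the 9 lower ones from 7, and the families with more than 1 such gene in a direction were the Shaker family with 3 lower and the Kcnn family with 2 higher.

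Among the lower members, Kcnd2 was at 489 CPM (95% interval 481 to 498) with 0 Pdgfra UMIs and at 1577 CPM (1569.6 to 1585) with 2 or more, a ratio of 0.310 (0.305 to 0.316). Under 14 alternatives described below, this ratio ran from 0.0699 to 0.873 and was past 2-fold in 11 of them. A thinned nucleus had a median of 0 Kcnd2 UMIs with 0 Pdgfra UMIs and of 7 with 2 or more, and 58.0% against 4.31% of nuclei had none. The intervals of both levels are far apart, yet the 90th percentile of the nuclei with 0 Pdgfra UMIs was 10 Kcnd2 UMIs, above the median of the other group, so single nuclei overlapped.

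The Shaker genes had the same direction. Kcna2 was at 6.63 CPM with 0 Pdgfra UMIs and 26.7 CPM with 2 or more, a ratio of 0.248 (0.212 to 0.289). Kcna6 stood at 4.01 and 16.6 CPM, a ratio of 0.241 (0.197 to 0.294). Kcna4 was at 0.786 and 2.55 CPM, a ratio of 0.309 (0.188 to 0.482). Together the 8 Kcna genes summed to 14.3 against 46.8 CPM, with Kcna5 going the other way on 82 UMIs, at 2.40 and 0.156 CPM.

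The other lower members belong to different channel types. The M-type subunit Kcnq3 was at 14.7 and 43.5 CPM, the ether-a-go-go subunit Kcnh5 at 16.3 and 45.1 CPM, and the leak channel Kcnk10 at 19.8 and 49.4 CPM, with ratios of 0.338, 0.362 and 0.401. Kcnj3 had the lowest ratio of the members, 0.173 (0.0684 to 0.365), but from levels of only 0.262 and 1.52 CPM. The BK subunit Kcnmb4 was just past 2-fold at 55.2 and 113 CPM, a ratio of 0.490 (0.464 to 0.517), whose interval includes 0.5.

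The largest ratio in the other direction was that of the Shaw gene Kcnc1, with 51.6 CPM (95% interval 48.9 to 54.4) in nuclei with 0 Pdgfra UMIs and 4.05 CPM (3.67 to 4.46) in those with 2 or more, 12.7 times higher (11.4 to 14.2). After thinning, 19.5% of the nuclei with 0 Pdgfra UMIs and 1.55% of the others held a Kcnc1 UMI. The small-conductance gene Kcnn3 was 12.3 times higher (9.01 to 16.9), though at levels of 6.55 and 0.535 CPM, and Kcnn2 was 2.79 times higher at 5.54 and 1.98 CPM.

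The BK pore gene Kcnma1 was 2.33 times higher (2.22 to 2.45) with 0 Pdgfra UMIs, at 95.1 and 40.8 CPM, opposite to its subunit gene Kcnmb4. The acid-sensitive leak gene Kcnk3 was 4.04 times higher at 3.30 and 0.817 CPM, and the cardiac-type Kcnh2 was 3.99 times higher at 4.23 and 1.06 CPM. Kcnd1, the X-linked paralog of Kcnd2, and Kcnab3, a Shaker beta subunit, were 2.19 and 2.16 times higher at 1.39 CPM each, with intervals that reach below 2. Among nuclei without Xist the ratio of Kcnd1 was 1.04 (0.323 to 2.57, from 59 UMIs).

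**Figure D2:**
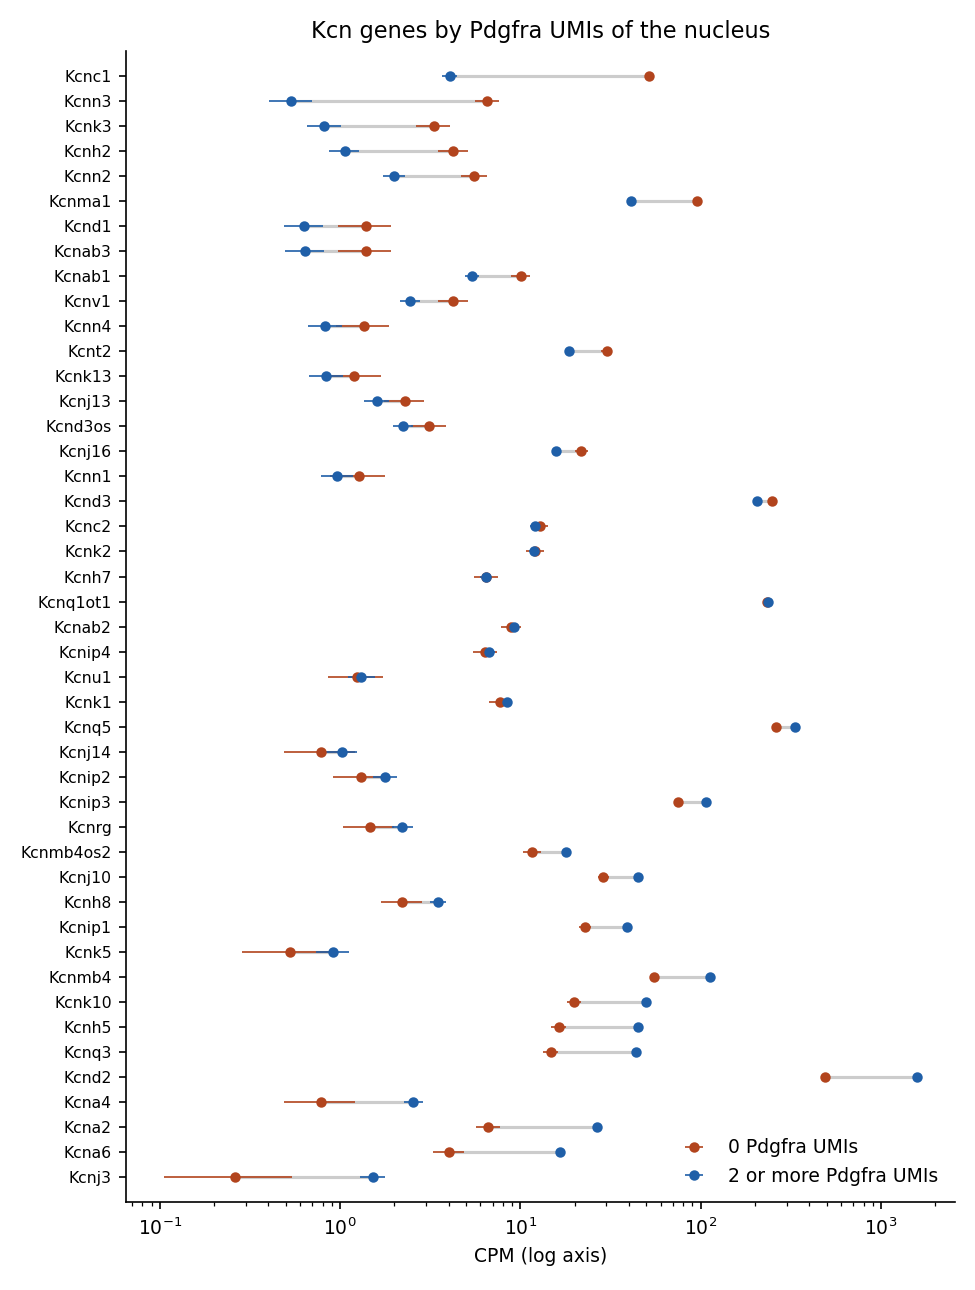
Levels of 45 Kcn genes with at least 100 UMIs in nuclei with 0 and with 2 or more Pdgfra UMIs, in CPM on a log axis, with 95% Poisson intervals and genes ordered by their ratio. Kcnc1 and Kcnn3 at the top lie more than 12 times apart, Kcnq1ot1 is at 233 and 235 in both groups, and Kcnd2, Kcna4, Kcna2, Kcna6 and Kcnj3 at the bottom are lower with 0 Pdgfra UMIs.

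Several abundant members differed by less than 2-fold. Kcnq1ot1 was at 233 and 235 CPM, a ratio of 0.989 (0.962 to 1.02). Kcnd3 was at 249 and 205 CPM, Kcnq5 at 262 and 335 CPM, Kcnip3 at 75.2 and 107 CPM, and Kcnj10 at 28.8 and 45.1 CPM. These are ratios of 1.22, 0.783, 0.703 and 0.638, none of them past 2-fold. Kcnj16, Kcnt2, Kcnk1, Kcnab2, Kcnv1 and Kcnu1 also stayed within 2-fold, between 0.917 for Kcnk1 and 1.73 for Kcnv1.

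Other features of the nuclei moved with Pdgfra. The nuclei with 0 Pdgfra UMIs had a median of 10621 UMIs and those with 2 or more of 16258, 65.5% and 8.82% of them held an Xist UMI, and Egfr was at 200 and 21.6 CPM. Other OPC markers were also lower with 0 Pdgfra UMIs, with Cspg4 at 25.3 and 74.9 CPM and Sox10 at 20.1 and 106.6 CPM. The 8 markers of committed oligodendrocytes summed to 120 and 550.5 CPM, with 4 of them past 2-fold lower, and the 8 neuronal markers to 109 and 156 CPM, although 1 of them, Rbfox3, was 9.78 times higher at 13.8 and 1.41 CPM. The 8 astrocyte markers summed to 533 and 413 CPM, with 0 past 2-fold higher and 1 lower. The 5 endothelial markers summed to 15.7 and 9.36 CPM, with 3 past 2-fold higher, and Cldn5 had no UMI. In nuclei of 10000 to 20000 UMIs, where the depths were closer at medians of 12731 and 14506 UMIs, 5 of 36 members were higher and 11 lower, against 8.69% and 8.32% of genes. After thinning, with the groups taken from thinned UMIs, 4 of 30 members were higher and 1 lower, against 4.59% and 1.32% of genes. The higher ones were Kcnt2, Kcnc1, Kcnv1 and Kcnn2, and the lower one was Kcna6. With at most 5% mitochondrial UMIs, 3 of 29 were higher and 2 lower, against 3.98% and 2.26% of genes. Here Kcnt2, Kcnab1 and Kcnc1 were higher, and Kcna2 and Kcna6 lower. Kcnt2, Kcnv1 and Kcnab1 were not past 2-fold over all nuclei, so the members called changed along with their counts. Kcnd2 was past 2-fold lower over all nuclei and at 10000 to 20000 UMIs, where it was at 369 and 1627 CPM, a ratio of 0.227. It was past 2-fold neither after thinning nor with this mitochondrial limit. After thinning, 3717 nuclei had 0 Pdgfra UMIs, against 2341 before it, so that group then included nuclei with Pdgfra UMIs before thinning. The part of these features in the ratios was not tested beyond the splits given here.

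Across bins of Pdgfra UMIs most of the difference lay between 0 and the other bins. Kcnd2 was at 489 CPM with 0 Pdgfra UMIs, 1389 with 1, 1606 with 2 to 4, 1572 with 5 to 9 and 1551 with 10 or more. Kcnk10 was also lowest with 0, at 19.8 CPM, and stood at 57.1, 53.9, 48.3 and 45.7 CPM in the bins above it. Kcnc1 went down over the bins, from 51.6 to 12.5, 4.90, 4.07 and 3.02 CPM. Kcnma1 declined more evenly, from 95.1 to 66.5, 49.1, 38.3 and 34.6 CPM. The bins also differed in depth, with medians of 10621, 10416.5, 13108, 17278.5 and 26154 UMIs. Xist was held by 65.5%, 17.2%, 8.08%, 8.80% and 10.6% of their nuclei. The part of depth and Xist in these trends was not tested.

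**Figure D3:**
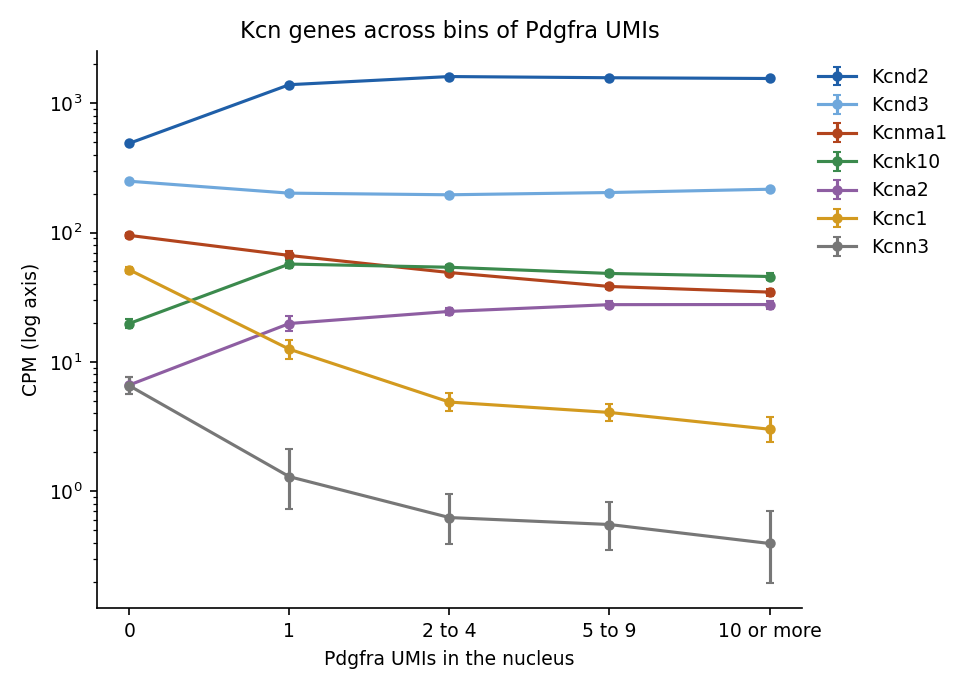
Levels of 7 Kcn genes in CPM on a log axis in nuclei with 0, 1, 2 to 4, 5 to 9 and 10 or more Pdgfra UMIs, with 95% Poisson intervals. Kcnd2 goes from 489 to 1389 between 0 and 1 Pdgfra UMI and is at 1551 with 10 or more, while Kcnc1 goes from 51.6 to 3.02 over the bins.

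The nuclei with 0 Pdgfra UMIs were then divided by Xist, the RNA made from the inactive X chromosome of female cells. Of them, 1534 held an Xist UMI and 807 did not, and their Kcn genes summed to 1343 and 3071 CPM. Kcnd2 was at 85.0 CPM (95% interval 80.8 to 89.2) in the 1534 nuclei with Xist and at 1420.3 CPM (1394 to 1447) in the 807 without, 16.7 times higher (15.9 to 17.6). Other markers moved with this division, with Sox10 at 3.65 CPM with Xist and 57.9 without, Cspg4 at 11.3 and 57.7 CPM, and Egfr at 241 and 106 CPM, while Olig1 was at 519.8 and 555 CPM. Their part in the Kcn values was not tested. In nuclei with 2 or more Pdgfra UMIs, Kcnd2 was at 1215 CPM with Xist and 1627 CPM without. Of these 4 groups, Kcnd2 was low in the nuclei with Xist and 0 Pdgfra UMIs and between 1215 and 1627 CPM in the other 3.

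Between these groups of nuclei with 0 Pdgfra UMIs, 15 of 31 members with enough UMIs were past 2-fold higher without Xist, where 8.53% of 11526 genes were, and 4 were past 2-fold lower, where 7.53% were. Kcnk10 was at 58.3 CPM without Xist and 3.11 CPM with Xist, Kcnh5 at 47.9 and 2.63 CPM, Kcnq3 at 40.6 and 3.44 CPM, and Kcna2 at 17.7 and 1.83 CPM. The 4 lower members were Kcnc1 at 9.16 and 70.0 CPM, Kcnn3 at 1.98 and 8.54 CPM, Kcnh2 at 1.48 and 5.42 CPM, and Kcnn2 at 2.85 and 6.71 CPM. The division by Xist thus went with both the lower and the higher members of the Pdgfra comparison.

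Among the nuclei without Xist, the comparison of 0 with 2 or more Pdgfra UMIs had 0 of 39 members past 2-fold lower, where 1.38% of 13564 genes were, and 7 past 2-fold higher, where 4.86% were. At a background share of 1.38%, a count of 0 among 39 is not a result about the members. Kcnd2 had a ratio of 0.873 there (0.856 to 0.889), Kcna2 of 0.634, Kcnh5 of 1.03 and Kcnk10 of 1.12. The 7 higher members were Kcnc1 with a ratio of 6.46, Kcnv1 with 4.88, Kcnc2 with 3.02, Kcnt2 with 2.65, Kcnh7 with 2.51, Kcnip4 with 2.16 and Kcnab1 with 2.03. Apart from Kcnc1, none of these was past 2-fold over all nuclei, and Kcnc2, Kcnh7, Kcnip4 and Kcnab1 are named here after their values were seen.

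The silent subunit gene Kcnv1 shows how the division by Xist changes a value. It was at 11.9 CPM with 0 Pdgfra UMIs and no Xist, at 0.913 CPM with 0 Pdgfra UMIs and Xist, and at 2.48 and 2.43 CPM in nuclei with 2 or more Pdgfra UMIs with and without Xist. Kcnt2 was at 47.9, 22.5, 23.3 and 18.04 CPM in the same order. Both were highest in the nuclei with neither Pdgfra nor Xist UMIs.

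Among the nuclei with Xist, 12 of 31 members were past 2-fold lower with 0 Pdgfra UMIs, where 6.93% of 11685 genes were, and 4 were past 2-fold higher, where 5.12% were. Kcna6 had the lowest ratio at 0.0532, followed by Kcnd2 at 0.0699 and Kcnh5 at 0.0769, and Kcnn3 the highest at 3.68. The 492 nuclei with both Xist and 2 or more Pdgfra UMIs had a median of 25566.5 UMIs, against 11394.5 in those with Xist and 0 Pdgfra UMIs. Without Xist, the medians were 15772 with 2 or more Pdgfra UMIs and 9055 with 0. Without thinning, 29.7% of the 492 nuclei also held a Y-linked UMI, against 5.35% of the nuclei with Xist and 0 Pdgfra UMIs. The part of depth in these values was not tested. Without the nuclei that held both Xist and Y-linked UMIs, the counts over the whole library were 6 of 45 higher and 9 lower, against 8.69% and 6.29% of genes.

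**Figure D4:**
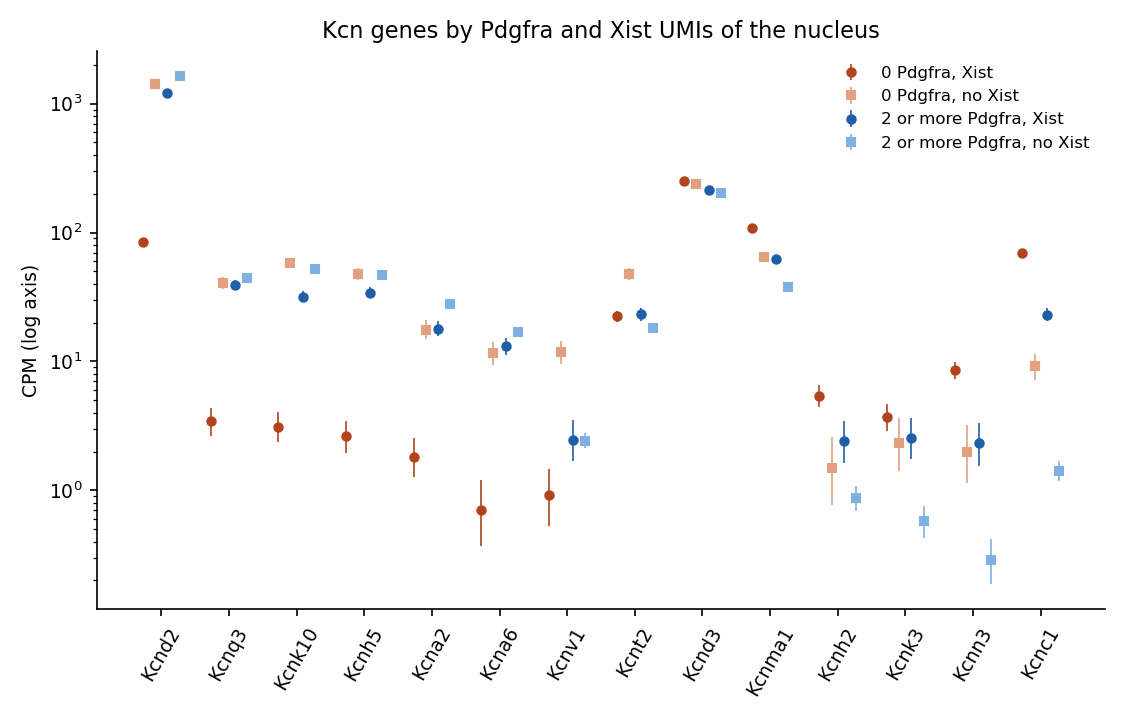
Levels of 14 Kcn genes in CPM on a log axis in 4 groups of nuclei, with 0 or with 2 or more Pdgfra UMIs and with or without an Xist UMI, with 95% Poisson intervals. In the nuclei with 0 Pdgfra UMIs and Xist, Kcnd2 is at 85.0 and Kcnc1 at 70.0, while in the other 3 groups Kcnd2 is at 1215 or higher and Kcnc1 at 23.1 or lower.

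The comparison by Top2a, a DNA topoisomerase of the S, G2 and M phases, asked whether Kcn levels differ in cycling nuclei. Top2a was at 0 UMIs in 1081 nuclei and at 3 or more in 6285, and ratios here are the level with 3 or more over the level with 0. The groups differed in depth, with medians of 15909 and 9451 UMIs, and in other cycle genes, with Mki67, Cdk1, Ccnb1 and Cdc20 past 2-fold higher and Pcna and Mcm5 not. The 99 members summed to 2849 and 2690 CPM, and to 1449 and 1600.1 CPM without Kcnd2. The ratio of the sums was 1.06, and 0.906 without Kcnd2. The ratio over the 99 members turned to 0.996 in nuclei of 10000 to 20000 UMIs and to 0.840 in nuclei with 0 Pdgfra UMIs, so no direction of the sum is read.

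Of 46 members with enough UMIs, 0 were past 2-fold in either direction, where 2.71% of 14196 genes were past 2-fold higher and 1.66% lower. With 1 library there is no p-value for this count, and at such low background shares a count of 0 among 46 is not a result about the members. The ratios ran from 0.524 for Kcnu1 to 1.63 for Kcnab2, and 35 of the 46 lay below 1, with a median of 0.849 over the members and 0.965 over all genes. Kcnd2 was among the 11 above 1, at 1399.8 CPM with 3 or more and 1090.2 CPM with 0 Top2a UMIs, a ratio of 1.28 (1.26 to 1.31).

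Kcnab2, the Shaker beta subunit, had the highest ratio at 9.63 and 5.90 CPM (1.63, 1.27 to 2.13). Kcnma1 was lower with 3 or more Top2a UMIs, at 49.8 and 74.6 CPM, a ratio of 0.667 (0.620 to 0.719). Kcnt2, Kcnj16 and Kcnn3 were lower as well, with ratios of 0.703, 0.708 and 0.643, whose intervals lie below 1. Kcnu1 had 1.29 and 2.45 CPM (0.524, 0.346 to 0.823).

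Since 0 of 46 members were past 2-fold by Top2a, where 2.71% of genes were higher and 1.66% lower, none past 2-fold by Pdgfra could be. This is therefore no further result, and Kcnd1 had too few UMIs in the Top2a comparison. Kcnc1 was at 13.7 CPM with 3 or more and 14.7 CPM with 0 Top2a UMIs (0.930, 0.790 to 1.10), Kcna6 at 13.7 and 13.6 CPM (1.01, 0.850 to 1.20), and Kcnq3 at 37.0 and 36.3 CPM (1.02, 0.919 to 1.13). Kcnd2 went up over the bins of Top2a UMIs, at 1090.2 CPM with 0, 1239 with 1 to 2, 1278 with 3 to 9 and 1441 with 10 or more. Kcnma1 went down from 74.6 with 0 to 61.6, 59.1 and 46.7 CPM. Median depth went up over these bins, at 9451, 10528, 12224 and 18409.5 UMIs, and Pdgfra was at 229, 249, 228 and 270 CPM. The part of depth and Pdgfra in these trends was not tested. Within the nuclei with 2 or more Pdgfra UMIs, 0 of 37 members were past 2-fold higher and 0 lower, where 3.43% and 1.13% of genes were. Within those with 0 Pdgfra UMIs, 0 of 28 were higher and 3 lower, where 2.95% and 1.57% of genes were. The 3 were Kcnh5 with a ratio of 0.425, Kcnip4 with 0.478 and Kcnh7 with 0.359, the last 2 named after their values were seen.

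**Figure D5:**
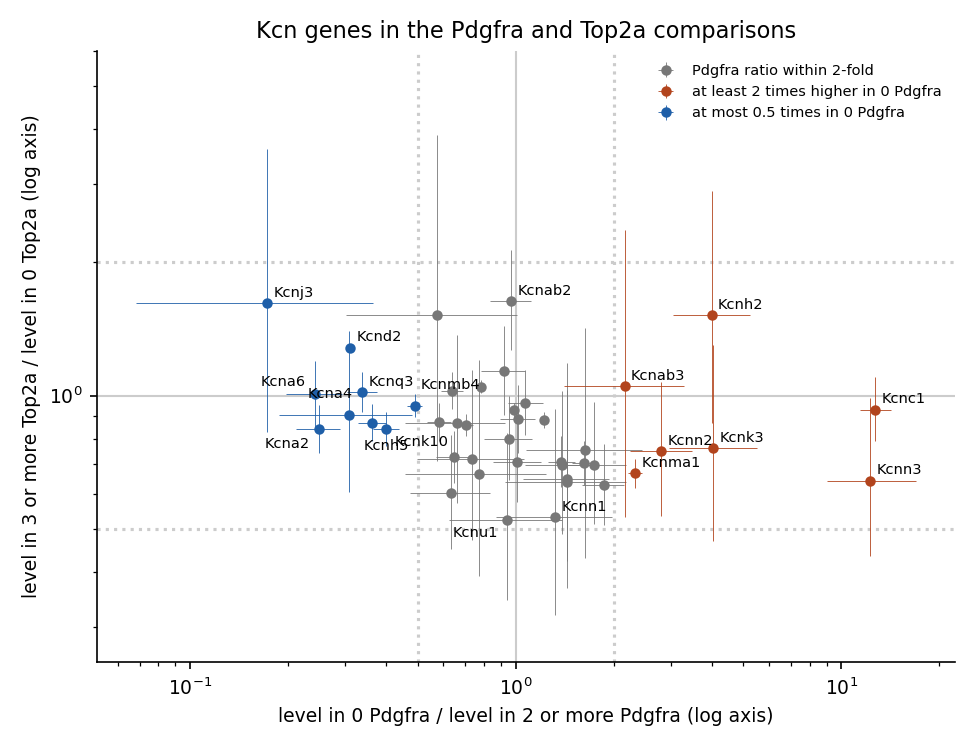
Ratios of 44 Kcn genes in the Pdgfra comparison (0 over 2 or more UMIs) and the Top2a comparison (3 or more over 0 UMIs), both on log axes, with 95% intervals as bars and dotted lines at ratios of 0.5 and 2. The genes spread from 0.173 to 12.7 along the Pdgfra axis and from 0.524 to 1.63 along the Top2a axis.

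Nuclei that held other marker genes gave further differences among the members. Of 1822 nuclei with 2 or more Egfr UMIs, 61.7% had 0 Pdgfra UMIs and 68.8% had Xist. Against nuclei with 0 Egfr UMIs, Kcnc1 was 11.7 times, Kcnn3 9.56 times, Kcnk3 4.21 times and Kcnh2 3.48 times higher there, and Kcnj3 and Kcna2 had ratios of 0.346 and 0.392. Since most of these nuclei also have 0 Pdgfra UMIs, this is no independent result.

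The 3088 nuclei with 2 or more Fam135b UMIs were the reverse, since 1.78% of them had 0 Pdgfra UMIs. Kcnq3 was 2.40 times and Kcna2 1.89 times as high there as in nuclei with 0 Fam135b UMIs, while Kcnn3 and Kcnc1 had ratios of 0.124 and 0.128. In the 503 nuclei with 2 or more Ralyl UMIs, Kcnv1 was 5.79 times, Kcnc2 4.47 times and Kcnt2 2.66 times higher than in nuclei with 0. In the 1411 nuclei with 2 or more Nrg3 UMIs, Kcnv1 was 3.09 times and Kcnc2 2.37 times higher, and Kcnd2 1.73 times. With Fam135b, Ralyl and Nrg3, some members not named here had larger ratios than some of those named. A Y-linked UMI was present in 76.5% of the Ralyl nuclei and 57.5% of the Nrg3 nuclei, against 23.9% and 20.7% of nuclei with 0 UMIs of these genes. The 96 nuclei with 2 or more Bnc2 UMIs were too few for most members, with Kcnd2 at a ratio of 0.630.

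Of 30 other genes that handle potassium or bind potassium channels, 22 had enough UMIs, and 2 were past 2-fold higher and 4 lower with 0 Pdgfra UMIs, while 0 were past 2-fold by Top2a. Beside the background shares of 8.49% and 6.41%, the count of higher genes is near the background. Dpp10, an accessory subunit of Kcnd channels, was at 114 CPM with 0 and 252 CPM with 2 or more Pdgfra UMIs, the same direction as Kcnd2. The sodium-potassium-chloride cotransporter gene Slc12a2 was at 112 and 257 CPM, the sodium pump subunit gene Atp1b2 at 14.2 and 29.5 CPM, and Cntnap2, which clusters Shaker channels in axons, at 1.91 and 4.65 CPM. The higher genes were Pex5l, a partner of hyperpolarization-activated Hcn channels, at 74.8 and 12.02 CPM, and Amigo1, a cell adhesion protein and channel auxiliary subunit, at 2.13 and 0.525 CPM. The sodium pump beta subunit gene Atp1b3 was at 126 CPM and stayed within 2-fold.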

How the data were processed

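BB-p53n OPC nuclei were sequenced by the authors with the 10x 3' v3.1 chemistry and processed with Cell Ranger 8.0.1 on mm39. The deposited table holds raw UMI counts per gene and barcode, not normalized and without cutoffs on detected genes. GRCm39 with GENCODE vM39 is the same build, and 33185 of 33696 genes matched it. Nuclei with 2000 to 8000 detected genes were kept, which left 141138093 of 154375410 UMIs. CPM was computed from summed counts with 95% exact Poisson intervals, ratios with exact conditional binomial intervals and shares with exact binomial intervals after thinning to 5000 UMIs, which left out 157 nuclei. These cover counting error only. Python 3.11.15, numpy 2.4.6, scipy 1.17.1 and pandas 2.3.3 were used. The ratio code was run on simulated independent Poisson counts. These have no variation between nuclei, so the run checks the computation only. No doublet caller was run. Members, lists and comparisons were chosen with earlier results of these data known.

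Genes named are the 10 highest members, the highest of each family with at least 100 UMIs, up to 8 past 2-fold in each comparison and direction, and 11 fixed members, apart from some genes that are not reported here. Others were named after their values were seen. The 30 other potassium genes and the lists of cell markers are lists of textbook genes. The alternatives numbered 22, and 3 more were chosen after seeing the data (the sum without Kcnd2, nuclei up to 25000 UMIs, and no nuclei with both Xist and Y-linked UMIs). The division of nuclei without Pdgfra by Xist was also chosen after the values were seen. The marker lists summed to 5322 CPM for OPCs, 453 for committed oligodendrocytes, 445 for astrocytes, 150 for neurons, 7.57 for microglia, 11.0 for endothelial cells, 0.517 for pericytes or fibroblasts and 1960 for cycling cells.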

Additional observations from a re-analysis of the deposited data

How the results depend on the processing

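No paired analysis was possible because all values come from 1 library. The members at 10 CPM or more numbered 20 to 22 under every alternative run, against 22.

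Higher in nuclei with 0 Pdgfra UMIs were 8 members, but 3 with at most 5% mitochondrial UMIs (455 and 1208 nuclei), 4 after thinning with groups from thinned UMIs, 5 at 10000 to 20000 UMIs, 4 among nuclei with Xist, 2 among nuclei with 0 Top2a UMIs, and 15 or 3 with a minimum of 30 or 300 UMIs. Lower were 9, but 2, 1, 0 and 3 with the mitochondrial limit, thinning, no Xist and 0 Top2a UMIs, and 15 at a ratio of 1.5. No share over all genes was computed for 0 Top2a UMIs, the other minimums or the ratio of 1.5. The counts in those settings are therefore not results about the members. Nor is the count of 0 lower members without Xist, where the share over all genes was 1.38%. The ratio of the summed level, 0.608, was 0.627 with all barcodes, 0.595 at 3000 to 7000 genes, 0.716 with the mitochondrial limit, 0.631 as a mean per nucleus, 0.575 with protein-coding members, 0.764 thinned, 0.532 at 10000 to 20000 UMIs, 0.511 with Xist, 0.980 without Xist, 0.707 with 0 Top2a UMIs, 0.922 without Kcnd2 and 0.599 up to 25000 UMIs. Without Xist, Kcnk10 reversed to 1.12 and Kcnh5 to 1.03, and with the mitochondrial limit Kcnn2 reversed to 0.996. Kcnc1 and Kcnn3 stayed past 2-fold under each of 14 alternatives, at 3.03 to 34.3 and 3.68 to 22.0. Not all of these Kcnn3 ratios had enough UMIs to be counted by the minimum of the main comparison. Without Xist, Kcnn3 had 16 UMIs in nuclei with 0 Pdgfra UMIs and 26 in the other group. All nuclei with 0 Top2a UMIs held 29. Kcnn3 was also not among the members called after thinning or with the mitochondrial limit.

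By Top2a, 0 members were higher, but 1 at 3000 to 7000 genes, 1 with a minimum of 30 UMIs and 4 at a ratio of 1.5. Lower were 0, but 2 with all barcodes, 1 with the mitochondrial limit, 1 as a mean per nucleus, 3 among nuclei with 0 Pdgfra UMIs, 6 with a minimum of 30 UMIs, 8 at a ratio of 1.5 and 1 up to 25000 UMIs. Apart from the nuclei with 0 Pdgfra UMIs, no share over all genes was computed for these changed counts. They are therefore not results about the members. The ratio of the summed level, 1.06, was 1.04 with all barcodes, 1.07 with the mitochondrial limit, 1.08 with protein-coding members, 1.03 thinned and 1.04 with 2 or more Pdgfra UMIs, and it reversed to 0.996 at 10000 to 20000 UMIs, 0.840 with 0 Pdgfra UMIs and 0.906 without Kcnd2. The cause of these changes was not tested.

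Depth limits the 52 members under 100 UMIs, whose ratios were not counted.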
